A study of Mus musculus with 6 samples.

Results

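Border-associated macrophages are the macrophages of the brain's outer compartments, found in the meninges, around penetrating vessels and in the choroid plexus. They were picked here out of 6 single-cell RNA libraries of sorted mouse brain leukocytes by a rule on raw counts of unique molecular identifiers (UMIs, each standing for 1 captured transcript). A barcode was a member if it held 300 or more genes, no more than 10% mitochondrial UMIs, 5 or more UMIs of Pf4, Mrc1 and Cbr2 together with at least 1 of them from Mrc1, and fewer than 3 UMIs of the microglial genes P2ry12 and Tmem119. Barcodes with 1% or more of their UMIs from S100a8 and S100a9, or with any UMI of the lymphocyte genes Cd79a and Cd3e, were left out. The rule found 188 members among 51005 barcodes, of which 50634 passed its limits on genes and mitochondrial UMIs. The members were thus chosen by their measured levels of Mrc1, Pf4 and Cbr2. These levels, and every comparison of their levels with other cells are given as description, with no test.

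The mice were C57BL/6 and all carried floxed alleles of Cd300a (chr11:114890041-114904654, an inhibitory receptor). One genotype, Cd300a-fl/fl (called fl/fl), had no Cre, and the other, Cd300a-fl/fl Lyz2-cre (called Lyz2-cre), also had Cre recombinase under the Lyz2 promoter, which is active in macrophages, monocytes and neutrophils. Naive mice of each genotype were sampled, and mice with 1 h or 3 h of reperfusion after a filament had blocked the middle cerebral artery for 60 min. The series design calls the earliest group 0 h and the sample titles call it naive, and the titles were followed. Each library pooled 3 brains from perfused mice and held living CD45-positive cells sorted after a Percoll gradient, so each combination of genotype and time is 1 pool. No source used here states the ages, the exons between the loxP sites, or whether meninges and choroid plexus were kept. The chemistry counts transcripts from their 3′ ends, so a UMI of Cd300a does not show whether those exons were deleted. Throughout, a pair of values is given with the fl/fl library first and the Lyz2-cre library second.

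In a healthy brain these macrophages are known for sampling cerebrospinal fluid and the fluid around vessels, taking up macromolecules through scavenger receptors such as CD163 and the mannose receptor MRC1, and presenting antigen. They are commonly split into a population with the hyaluronan receptor LYVE1 and little class II major histocompatibility complex (MHC II), and one with MHC II and little LYVE1. They also handle haem and iron, through uptake of haemoglobin by CD163, breakdown of haem by haem oxygenase (Hmox1), storage in ferritin (Fth1, Ftl1) and export through ferroportin (Slc40a1).

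The label was checked against marker genes that the rule did not use. Ms4a7, a tetraspanning membrane protein that marks border-associated macrophages among brain macrophages, had 704 and 592 CPM in naive mice, 1024 and 904 after 1 h, and 176 and 234 after 3 h, and the microglia of the same libraries had 0 to 1.02 CPM. CPM are a gene's UMIs per 1000000 UMIs summed over the cells of that kind in that library, and microglia were barcodes with 3 or more UMIs of P2ry12 and Tmem119 and no more than 1 UMI of Pf4, Mrc1 and Cbr2 (4325 to 7549 per library, 38403 in all). Cd163, the haemoglobin scavenger receptor, ranged from 99.2 to 793 CPM in members and was at most 0.0977 CPM in microglia. Lyve1 had 275 and 124 CPM in naive mice, 330.4 and 614 after 1 h, and 216 and 321 after 3 h, against no more than 0.15 CPM in microglia and 0 in monocytes (barcodes with Ly6c2 and Ccr2, 92 to 667 per library). F13a1, the A subunit of clotting factor XIII, was carried by members at 373 to 662 CPM and by monocytes at 558 to 1474 CPM, so it set members apart from microglia (1.20 to 38.5 CPM) and not from monocytes. On GRCm38 the genes that mark the members lie at chr2:14229392-14332057 (Mrc1), chr5:90772435-90773383 (Pf4), chr11:120729489-120732114 (Cbr2), chr19:11321039-11336146 (Ms4a7) and chr13:36867178-37050244 (F13a1), and each is counted from the polyadenylated end of its transcripts. The 20 genes with the highest ratio of member to microglia level were Cd163, Pf4, Lyve1, Ms4a7, Ccl8, Cbr2, Mgl2, Cd38, Clec4n, Folr2, Cp, Thbd, Clec10a, Pltp, Mrc1, H2-Eb1, H2-Aa, Cyr61, AA467197 and Cd209a. Pf4, Cbr2 and Mrc1 were used to choose both members and microglia, so their high ratios were set by the rules. Apart from them, that order holds scavenger and lectin receptors, the chemokine Ccl8, MHC II chains and, last, Cd209a, a lectin that dendritic cells also make.

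Many genes that define other cells were low or absent in members, with exceptions among the microglial, dendritic cell, monocyte and B cell lists. The microglial gene Tmem119, which is in the rule, had 16.7 to 49.6 CPM in members and 1157 to 2218 CPM in microglia, and Sall1, a microglial transcription factor outside the rule, had 0 to 9.01 CPM against 176 to 331 CPM. The 12 microglial markers, which include P2ry12 of the rule, summed to 1366 to 4791 CPM in members and 21369 to 39161 CPM in microglia. Over all members Cd3d, Cd8a, Klrb1c, Ncr1 and Gzma (T and natural killer cells), Ms4a1, Pax5 and Fcmr (B cells), Cldn5, Ly6c1, Cdh5, Pdgfrb, Rgs5 and Vtn (vessels) and Aqp4, Gfap, Snap25, Syt1 and Ttr (neural and choroid plexus tissue) had no UMI. Of the other genes on the B cell list Ighm, the heavy chain of immunoglobulin M, and Cd79b, a subunit of the B cell receptor, were seen in members. The list summed to 275 and 302 CPM in naive mice, 231 and 301 after 1 h, and 22.5 and 29.2 after 3 h in members, against 354 and 390, 278 and 332, and 170 and 210 CPM in microglia. The summed level of the 10 vascular markers was 0 to 16.5 CPM in members and that of the 10 neural markers 12 to 90.0 CPM. The 10 neutrophil markers summed to 26.5 to 356 CPM in members and 32.1 to 306 CPM in microglia. The 11 monocyte markers other than Lyz2 summed to 460.4 and 720 CPM in naive mice, 264 and 530.1 after 1 h, and 1848 and 1714 after 3 h. The monocyte sum was thus highest in both 3 h libraries. Ly6c2, the gene of the monocyte surface protein Ly6C2, is part of that sum, so the share of members with it is not a separate observation. At 3 h 9 of 73 members had a Ly6c2 UMI (12.3%), against 0 of 82 in naive brain and 0 of 33 at 1 h. These 0 counts allow shares of up to 3.66% and 9.09%. Among microglia 0.373% to 2.39% had a Ly6c2 UMI, at a median depth of 3949 to 5248 UMIs against 3811 to 6590 in members. Cd209a was seen in 10 naive members, 0 of 33 at 1 h and 14 at 3 h, and 159 members had neither gene. Each result at 3 h was therefore also computed on those 159 members, a choice made after the data were seen.

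Values around the threshold of the rule show how the members grade into other cells. The 36 members with 5 or 6 UMIs of Pf4, Mrc1 and Cbr2 had 0 CPM of Lyve1, 39.4 of Cd163, 1006 of the monocyte chemokine receptor Ccr2 and 29854 of Cd74, the MHC II invariant chain. The 129 members with 10 or more had 404 CPM of Lyve1, 407 of Cd163, 201 of Ccr2 and 10898 of Cd74. The 67 barcodes just outside, with 3 or 4 UMIs, had 3.48 CPM of Lyve1, 6.97 of Cd163, 1124 of Ccr2 and 21994 of Cd74, and 765 of Cd209a against 359 just inside. Members near the threshold thus had less of the scavenger receptors and more Ccr2 and Cd74 than members well above it, and the barcodes just outside continued that order for Ms4a7 (67.9 CPM, against 214 just inside and 622 at 10 UMIs or more).

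**Figure D1:**
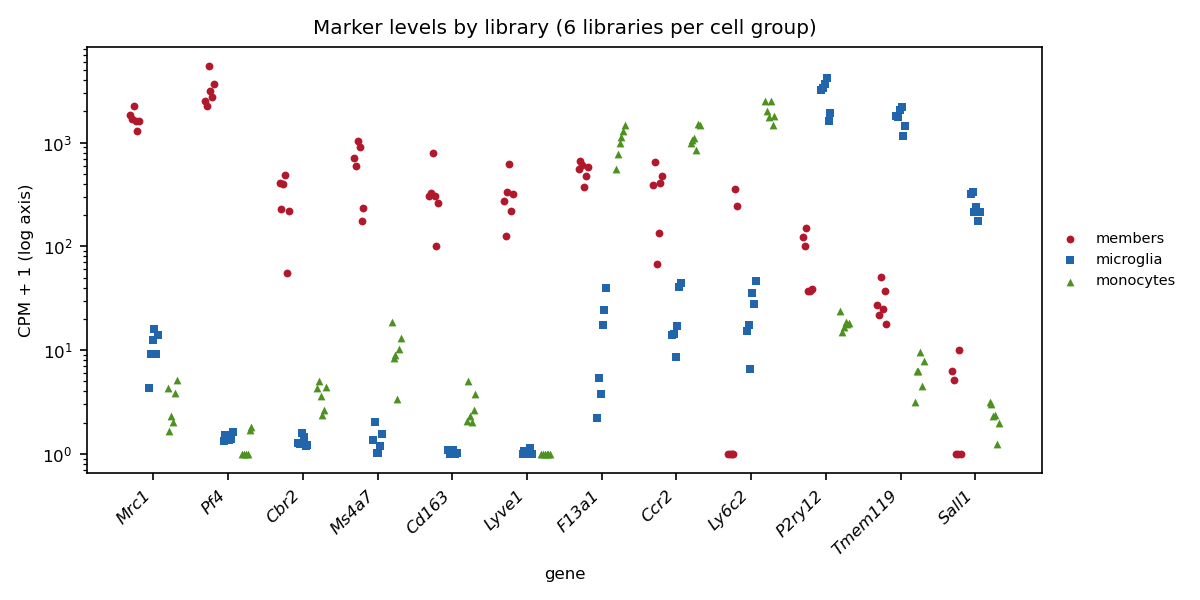
Level of 12 marker genes in CPM, on a log axis of CPM + 1, summed over members, microglia and monocytes of each library; each point is 1 of 6 libraries. Members carry Mrc1, Pf4, Cbr2 and Ms4a7, which microglia and monocytes hold near 0, F13a1 is shared with monocytes, and Tmem119, P2ry12 and Sall1 are highest in microglia. Mrc1, Pf4, Cbr2, Tmem119 and P2ry12 were used to choose the cells, so their differences are description.

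Members made up 0.505% of kept barcodes in the fl/fl naive library (36 cells, exact Clopper-Pearson 95% interval 0.354 to 0.698%) and 0.618% in the Lyz2-cre naive library (46 cells, 0.453 to 0.824%). At 1 h the shares were 0.178% (15 cells, 0.0998 to 0.294%) and 0.181% (18 cells, 0.107 to 0.286%). At 3 h they were 0.417% (30 cells, 0.282 to 0.595%) and 0.409% (43 cells, 0.296 to 0.55%). In both genotypes the 1 h interval lay below the naive one, and the naive and 3 h intervals overlapped. A share also moves with the number of other leukocytes in the sort and with how many of these cells the preparation freed, 1 pool stands behind each value, and the intervals cover counting error only, so no test was made.

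The member sums held 60525 to 241741 UMIs per library, with the 1 h libraries the shallowest at 60525 and 83010, so the 1 h levels carry the widest counting error. Whole libraries held 35479437 to 48478866 UMIs. No single cell gave more than 15.2% of a member sum. Of the 51005 barcodes, 305 occurred in more than 1 library; 5 member barcodes also occurred in another library, and none was a member in both. A doublet score marked 6 members, 4 of them in the Lyz2-cre 3 h library.

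The members fell into a low and a high range of MHC II. The share of a member's UMIs from H2-Aa, H2-Ab1, H2-Eb1 and Cd74 was under 0.1% in 84 members and over 3% in 80, and 8 members lay within a factor of 2 of a dividing line at 1%, set after the values were seen. Below the line were 17 and 18 members of naive mice, 10 and 12 after 1 h, and 14 and 27 after 3 h, and above it 19 and 28, 5 and 6, and 16 and 16. Lyve1 was seen in 61 of the 98 members below the line (62.2%) and in 5 of the 90 above it (5.56%), so Lyve1, which did not draw the line, was seen mostly below it. The uptake receptor Cd163 had 280.2 to 1105 CPM below the line and 0 to 266 CPM above it, and the lectin Cd209f had 50.9 to 387 CPM and 0 to 60.0 CPM. Ccr2, which recruits monocyte-derived cells, had the opposite pattern, at 0 in 5 of the 6 low sums and 498 CPM in the Lyz2-cre 3 h one, against 178 to 948 CPM in the high sums. Of the members above the line 51 of 90 had a Ccr2 UMI, and of those below it 2 of 98. The median member below the line held 9 Mrc1 and 19 Pf4 UMIs and the median member above it 5 and 3, which is a description, since the rule asks for these genes in every member. The median for Ly6c2, Flt3 and Cd209a was 0 on either side. These ranges were drawn by a score, and whether they are separate cell types was not tested. Their shares by library (33.3% to 60.9% above the line) rest on 15 to 46 cells each.

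**Figure D2:**
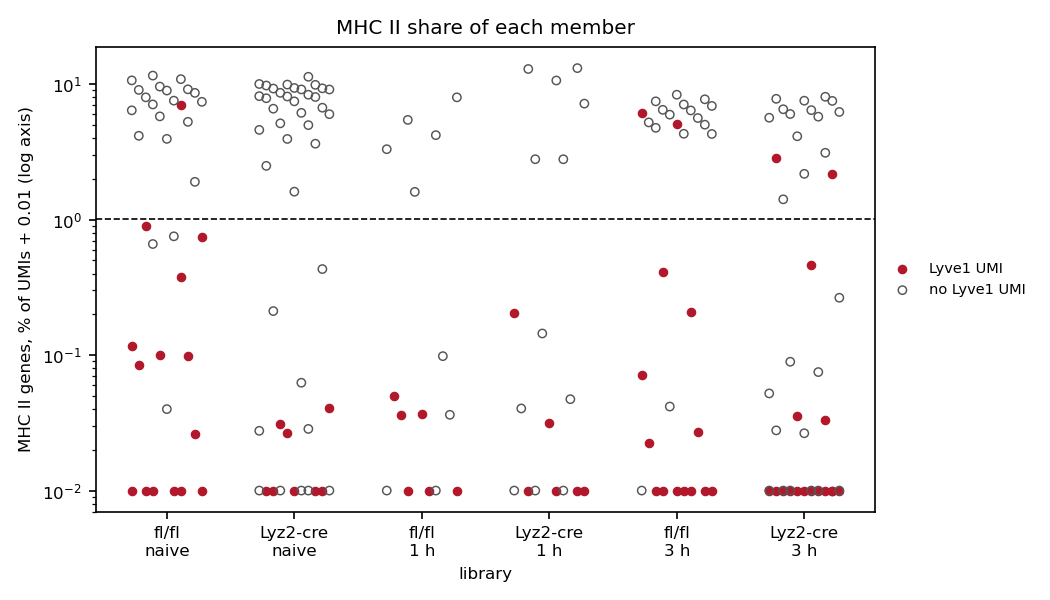
Percent of each member's UMIs that came from H2-Aa, H2-Ab1, H2-Eb1 and Cd74, on a log axis with 0.01 added, by library; each point is 1 of 188 members, filled where the cell had a Lyve1 UMI, and the dashed line marks 1%. Members lie in a band near 0 and a band above 3%, and 61 of the 66 members with Lyve1 are below the line.

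The first comparison was 1 h of reperfusion against naive brain, in member sums. At 1 h members had more of the inducible chaperones Hspa1a and Hspa1b, the metallothioneins Mt1 and Mt2, the neutrophil-recruiting chemokine Cxcl2, haem oxygenase (Hmox1), the lipopolysaccharide co-receptor Cd14 and the transcription factor Cebpb, and less Fosb, Egr1, Jun and Klf2. Of 3862 genes tested, 110 rose (2.85% of those tested) and 37 fell (0.958%) at an adjusted p under 0.05 in edgeR's quasi-likelihood test, and the median log2 fold change over all of them was -0.02. The model has genotype and time, and each time has 2 libraries, so libraries of the other genotype stand in for replicates and departures from an additive model leave 2 residual degrees of freedom. The test also borrows from the variance of other genes, with a median of 19.6 prior degrees of freedom. The p-values thus rest more on that shared variance than on a gene's own spread between pools. A gene with no UMI in a group could only be called higher in the group compared with it. Calls of such genes are given as description, also where a list's count holds them. A log2 fold change is followed by a standard error worked out from its size and the test's F statistic. This error thus also reflects the borrowed variance. Without the fl/fl naive library 84 genes were called, without the Lyz2-cre naive library 96, and by DESeq2 in place of edgeR 72.

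The chaperones of the HSP70 family were among the genes that rose most. Hspa1b, an inducible chaperone that is barely made in unstressed cells, had 0 and 4.14 CPM in naive mice, 1702 and 1554 after 1 h, and 654 and 1331 after 3 h. Both 1 h libraries were above both naive ones, and with 1 UMI in all naive members the ratio was 696-fold (95% counting interval 124 to 27615), adjusted p = 7.2e-10. Its neighbour and near copy Hspa1a had 52.9 and 223 CPM in naive mice, 1718 and 1976 after 1 h, and 608 and 2840.5 after 3 h. Hspa1a rose (log2 fold change 3.92 ± 0.47, adjusted p = 7.2e-04). Reads of these copies can be assigned to either gene, so their separate values are uncertain. Hspa1b UMIs came from 15 of 33 members at 1 h, with 18.5% of them from a single cell. Of the 17 genes listed as heat shock chaperones and co-chaperones, 15 were tested and 3 rose at 1 h (Hspa1a, Hspa1b and the endoplasmic reticulum chaperone Hspa5, log2 fold change 0.96 ± 0.25, adjusted p = 0.028); none fell, and the list's median was 0.70.

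The regions upstream of Hspa1a and Hspa1b are shown because both genes rose together and heat shock factor is known to bind pairs of inverted GAA units in front of them. The 250 bases before each RefSeq start are on chromosome 17 of GRCm38.p6, minus strand, at chr17:34972157-34972406 for Hspa1a and chr17:34959239-34959488 for Hspa1b, written 5′ to 3′ with a match to GAANNTTC in capitals:
Hspa1a: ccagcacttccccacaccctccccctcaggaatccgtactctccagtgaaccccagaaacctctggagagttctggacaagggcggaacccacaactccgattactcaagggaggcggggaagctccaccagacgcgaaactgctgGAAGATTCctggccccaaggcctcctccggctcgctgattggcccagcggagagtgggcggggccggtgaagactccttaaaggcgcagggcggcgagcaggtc
Hspa1b: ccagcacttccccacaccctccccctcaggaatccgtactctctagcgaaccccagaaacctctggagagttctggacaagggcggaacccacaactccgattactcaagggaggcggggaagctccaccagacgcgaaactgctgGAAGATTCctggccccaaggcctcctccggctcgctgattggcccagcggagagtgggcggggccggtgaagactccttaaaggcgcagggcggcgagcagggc
In both, 1 match starts 104 bases before the start, and the sequences are identical at 247 of 250 positions (98.8%), which shows how close the copies are outside the coding part. GAANNTTC reads the same on both strands and occurs in 6.69% of 32851 RefSeq upstream regions of this length. TTCNNGAA, the other order of the same units, occurs in 7.17%. Of the 17 chaperone genes 13 matched a RefSeq region, and 6 of these held GAANNTTC (Dnaja1, Hspa1a, Hspa1b, Hspb1, Hspd1 and Hspe1) and 4 TTCNNGAA (Dnajb4, Hspd1, Hspe1 and Hsph1). A match of letters describes the sequence and does not show that a factor binds there.

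Metallothioneins and oxidant defence genes came next. Mt1, a small metal-binding protein, had 164 and 289.6 CPM in naive mice, 5287 and 1964 after 1 h, and 5323 and 5259.7 after 3 h. Mt1 rose at 1 h (log2 fold change 3.82 ± 0.45, adjusted p = 5.5e-04). Its levels at 1 h and 3 h lay above both naive libraries. Mt2 had 5.29 and 4.14 CPM in naive mice, 446 and 108 after 1 h, and 1099.7 and 801 after 3 h; with 2 UMIs over all naive members the ratio at 1 h was 54.0-fold (95% counting interval 13.9 to 463), adjusted p = 2.0e-05. Hmox1, which breaks haem into iron, biliverdin and carbon monoxide, had 95.2 and 91.0 CPM in naive mice, 1669 and 566 after 1 h, and 4665 and 3837 after 3 h. Hmox1 rose at 1 h (log2 fold change 3.40 ± 0.35, adjusted p = 5.2e-06). Its 1 h UMIs came from 20 of 33 members. The heavy chain of ferritin, Fth1, which stores iron, had 7905 and 6118 CPM in naive mice, 13300.3 and 12360 after 1 h, and 33947 and 21343 after 3 h. Fth1 rose (log2 fold change 0.85 ± 0.23, adjusted p = 0.0375), while Hpgds, a prostaglandin D synthase, fell (log2 fold change -1.34 ± 0.36, adjusted p = 0.0342). Of the 13 listed targets of the oxidant sensor NRF2 and related genes, 11 were tested, Mt1 and Mt2 rose at 1 h and none fell; the median was 1.73, or 1.04 with genes at 0 held at their bound.

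The regions upstream of Mt1 and Mt2 are shown because the genes are neighbours that rose together at 1 h and 3 h, and the metal-responsive factor MTF1 is known to bind the core TGCNCNC in front of them. The 250 bases before each RefSeq start are on chromosome 8 of GRCm38.p6, plus strand, at chr8:94178839-94179088 for Mt1 and chr8:94172368-94172617 for Mt2, written 5′ to 3′ with each match to TGCNCNC, or to GNGNGCA for the other strand, in capitals:
Mt1: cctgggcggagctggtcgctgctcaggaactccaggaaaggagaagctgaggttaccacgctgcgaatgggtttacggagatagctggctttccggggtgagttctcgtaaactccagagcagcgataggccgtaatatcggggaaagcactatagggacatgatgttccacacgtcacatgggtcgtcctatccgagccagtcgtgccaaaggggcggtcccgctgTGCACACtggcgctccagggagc
Mt2: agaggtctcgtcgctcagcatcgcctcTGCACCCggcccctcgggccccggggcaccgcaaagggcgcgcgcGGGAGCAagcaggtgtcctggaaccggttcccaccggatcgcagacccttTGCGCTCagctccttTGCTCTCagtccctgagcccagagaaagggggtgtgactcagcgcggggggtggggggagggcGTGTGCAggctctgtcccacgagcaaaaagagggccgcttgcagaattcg
Mt2 has 5 matches, starting 223, 178, 128, 113 and 50 bases before the start, and Mt1 has 1, starting 23 bases before it. The core is short: 44.4% of RefSeq upstream regions of this length hold it, so a match by itself says little. TGACNNNGC, the core to which NRF2 is known to bind (GCNNNGTCA on the other strand), occurs in 10.2% of regions. Of the 11 listed oxidant genes that matched a region, 4 held it (Gclm, Mt2, Prdx1 and Txnrd1). Matches are a description of the letters in these windows only.

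Inflammatory signals changed in both directions at 1 h. Cxcl2, a chemokine that draws neutrophils, had 201 and 215 CPM in naive mice, 3371 and 2433 after 1 h, and 7076 and 4242 after 3 h. Cxcl2 rose at 1 h (log2 fold change 3.71 ± 0.28, adjusted p = 1.5e-08). Both naive libraries were below all later ones, and monocytes of the same libraries had 24.1 and 56.2 CPM in naive mice, 27.7 and 39.8 after 1 h, and 933 and 816 after 3 h. Interleukin 1 beta (Il1b) had 47.6 and 78.6 CPM in naive mice, 843 and 1144 after 1 h, and 2772 and 1018 after 3 h. Il1b rose (log2 fold change 3.91 ± 0.53, adjusted p = 0.00165), but 1 cell gave 54.8% of its UMIs at 1 h, and in the 159 members without Ly6c2 and Cd209a the call was lost (adjusted p = 0.266). Cd83, an activation marker, rose (log2 fold change 2.88 ± 0.31, adjusted p = 3.2e-06), with 138 and 153 CPM in naive mice, 1421 and 879 after 1 h, and 392 and 321 after 3 h. The chemokines Ccl2 (log2 fold change -1.70 ± 0.27, adjusted p = 3.7e-04), Ccl7 (log2 fold change -1.01 ± 0.27, adjusted p = 0.034) and Ccl8 fell. Ccl8 had 476 and 128 CPM in naive mice, 0 and 12 after 1 h, and 18.0 and 41.7 after 3 h, and with 1 UMI at 1 h its ratio, naive over 1 h, was 40.3-fold (95% counting interval 7.10 to 1606), adjusted p = 0.00912. Of 21 chemokine genes 14 were tested, of which 2 rose (Cxcl2 and Ccl9) and 3 fell, with a median of 0.24. Of 27 cytokine and NF-kB genes 16 were tested; Cd83, Ier3, Il1b, Osm and Il1rn rose, the NF-kB modulator Nfkbiz fell (log2 fold change -2.71 ± 0.38, adjusted p = 1.1e-04), and the median was 0.73. For Il1rn, the interleukin 1 receptor antagonist, 1 cell gave 77.3% of the UMIs at 1 h.

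Receptors and regulators also moved at 1 h. Cd14 had 788 and 869 CPM in naive mice, 4973 and 2277 after 1 h, and 4849.5 and 4159 after 3 h. Cd14 rose (log2 fold change 2.0 ± 0.28, adjusted p = 1.4e-04). The 1 h and 3 h libraries did not overlap with the naive ones. Cebpb, a transcription factor of inflammatory macrophages, had 407 and 302 CPM in naive mice, 3519 and 2337 after 1 h, and 3128 and 1839 after 3 h. Cebpb rose (log2 fold change 2.99 ± 0.25, adjusted p = 8.1e-08). The cytokine signalling inhibitor Socs3 had 185 and 215 CPM in naive mice, 1322 and 1156 after 1 h, and 1185 and 638 after 3 h. Socs3 rose (log2 fold change 2.56 ± 0.30, adjusted p = 1.5e-05). Of 24 regulators 17 were tested, and 3 rose (Cebpb, Socs3 and Nr4a1) and 2 fell (Klf4 and Maf), with a median of 0.31. Of 24 tested uptake genes Cd14, Clec4n and the Fc receptor Fcgr4 (log2 fold change 1.74 ± 0.48, adjusted p = 0.0393) rose and none fell, with a median of 0.44, or 0.38 with genes at 0 held at their bound, and none of 10 tested complement genes was called, with 3 at an unadjusted p under 0.05. Gadd45g and the cell cycle inhibitor Cdkn1a, both known stress-response genes, rose (log2 fold change 3.40 ± 0.43, adjusted p = 2.3e-05, and log2 fold change 2.89 ± 0.41, adjusted p = 9.6e-05); 5 of 11 tested stress and unfolded-protein genes rose (Rcan1, Hspa5, Cdkn1a, Gadd45b and Gadd45g), none fell, and the median was 1.12. Plaur, the urokinase receptor, had no UMI in naive members and 215 and 120.5 CPM at 1 h (at least 23.0-fold higher over the pooled members, adjusted p = 3.6e-05). The matrix glycoprotein Thbs1 also rose from 0, but 90.5% of its 1 h UMIs were in a single cell, and without the Lyz2-cre 1 h library its adjusted p was 0.362.

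The immediate-early genes, transcription factors that respond within minutes to many stimuli, were mostly lower at 1 h than in naive members. Fosb had 1852 and 2143 CPM in naive mice, 297 and 181 after 1 h, and 189 and 196 after 3 h. Fosb fell at 1 h (log2 fold change -3.14 ± 0.30, adjusted p = 7.9e-07), with the naive libraries above all later ones. Egr1 had 1460.4 and 2135 CPM in naive mice, 347 and 578 after 1 h, and 549.9 and 546 after 3 h. Egr1 fell (log2 fold change -1.99 ± 0.28, adjusted p = 7.9e-05). Jun had 7969 and 8071 CPM in naive mice, 3982 and 2783 after 1 h, and 1208 and 1848 after 3 h. Jun fell (log2 fold change -1.29 ± 0.25, adjusted p = 0.00293). Of 24 listed genes 18 were tested, 9 fell (Fos, Fosb, Jun, Jund, Egr1, Egr2, Klf2, Klf4 and Klf6) and 3 rose (Junb, Fosl2 and Nr4a1), with a median of -0.82. Nr4a1 rests on 7 cells, of which 1 gave 67.6% of the UMIs. Junb had 1572 and 1431 CPM in naive mice, 3073 and 2614 after 1 h, and 1632 and 1076 after 3 h, a rise at 1 h (log2 fold change 0.87 ± 0.23, adjusted p = 0.0339) that kept its call in 6 of 14 alternatives. No gene of the list rose in members with 10 or more UMIs of the rule's genes, where 9 of 17 fell, or in those with little MHC II, where 7 of 16 fell. Over all genes 68 rose and 31 fell of 2625 in the former set, and 37 rose and 14 fell of 1591 in the latter.

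At 1 h the MHC II genes that were called fell and the interferon genes that were called rose. H2-Ab1, an MHC II chain, had 6911 and 8455 CPM in naive mice, 1966 and 4421 after 1 h, and 7874 and 5777 after 3 h. H2-Ab1 fell (log2 fold change -1.34 ± 0.32, adjusted p = 0.0339). Its regulator Ciita fell too (log2 fold change -2.41 ± 0.64, adjusted p = 0.0323). They were the 2 called among 8 tested MHC II genes, whose median was -0.92. The share of members above the MHC II line was also lowest in the 1 h libraries, at 33.3% in each, so a smaller part of MHC II-high members and less MHC II RNA per member cannot be told apart in the sums. Ccr2 fell at 1 h (log2 fold change -2.40 ± 0.39, adjusted p = 5.3e-04), and Cd209a went from 179.9 and 281 CPM to no UMI (at least 11.3-fold lower, adjusted p = 1.1e-04). Both were seen mostly in MHC II-high members. Within those members Ccr2 had 752 and 948 CPM in naive mice and 178 and 319 CPM at 1 h. Cd209a had 325 and 354 CPM there and then 0. These 1 h values rest on 5 and 6 cells, and the change within high members was not tested. Of 12 interferon-induced genes tested, Isg15, Irf7 and Bst2 rose and none fell, with a median of 1.08. Isg15, a ubiquitin-like protein, had 122 and 49.6 CPM in naive mice, 562 and 518 after 1 h, and 297 and 75.1 after 3 h. Isg15 rose (log2 fold change 2.76 ± 0.42, adjusted p = 4.0e-04), with 45.5% of the 1 h UMIs from a single cell. Of the border-macrophage identity genes outside the rule, 26 of 30 were tested and their median was 0.19; the lectin Clec4n rose (log2 fold change 1.65 ± 0.40, adjusted p = 0.0191), Ccl8 and the transcription factor Maf (log2 fold change -1.18 ± 0.32, adjusted p = 0.0443) fell, and the other 23 were not called. Mrc1 and Pf4 themselves had 1831 and 1692 CPM in naive mice, 2247 and 1614 after 1 h, and 1284 and 1614 after 3 h, and 2508 and 2254 CPM in naive mice, 5419 and 3120.1 after 1 h, and 2718 and 3637 after 3 h.

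At 3 h more genes were called than at 1 h, with oxidant defence, haem and iron genes, chaperones, glycolysis genes and chemokines higher, and immediate-early genes, several identity genes and some complement genes lower than in naive brain. Of 3862 genes, 477 rose (12.4% of those tested) and 436 fell (11.3%), with an all-gene median of -0.02. Without the fl/fl naive library 408 genes were called, without the Lyz2-cre naive library 480, without the fl/fl 3 h library 535, and by DESeq2 238. In the 159 members without Ly6c2 and Cd209a 535 were called, of which 494 were among the 913. Of the 2792 genes tested there 281 rose and 254 fell. In the 98 members with little MHC II 168 rose and 123 fell of 1591 tested. The list counts from these sets below are to be read beside these all-gene counts.

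Oxidant defence had the largest share of its genes called among lists with 10 or more tested. The lists were chosen with earlier results of these data known, so this order is description. Of 13 genes, 11 were tested and 10 rose, none fell, and the median was 3.32. The 10 include Slc7a11, which had no naive UMI and could only rise. Without the members holding Ly6c2 or Cd209a 9 of 10 tested rose, and in members with little MHC II 8 of 9. Mt1 and Mt2 were higher than in naive brain again (log2 fold changes 4.52 ± 0.44 and 7.51 ± 0.53, adjusted p = 3.1e-05 and 2.0e-09); Mt1 was seen in 70 of 73 members at 3 h. Txnrd1, thioredoxin reductase, had 10.6 and 12.4 CPM in naive mice, 0 and 72.3 after 1 h, and 365 and 300.3 after 3 h. Txnrd1 rose (log2 fold change 4.79 ± 0.53, adjusted p = 2.4e-06). Srxn1, which repairs oxidised peroxiredoxins, had 10.6 and 0 CPM in naive mice, 16.5 and 60.2 after 1 h, and 229.9 and 275 after 3 h; with 2 UMIs in naive members the ratio was 54.6-fold (95% counting interval 14.8 to 456), adjusted p = 1.0e-06. Prdx1, a peroxide-removing enzyme, had 249 and 273 CPM in naive mice, 380.0 and 735 after 1 h, and 825 and 1026 after 3 h. Prdx1 rose (log2 fold change 1.86 ± 0.27, adjusted p = 2.9e-05). The subunits of glutamate-cysteine ligase, which makes the precursor of glutathione, both rose (Gclm, log2 fold change 3.14 ± 0.48, adjusted p = 5.8e-05; Gclc, log2 fold change 3.06 ± 0.51, adjusted p = 2.3e-04). Slc7a11, the cystine importer that feeds this pathway, had no UMI in naive members and 85.6 and 188 CPM at 3 h (at least 19.9-fold higher, adjusted p = 6.1e-06), and leaving out the Lyz2-cre 3 h library raised its adjusted p to 0.0807. Every one of these genes was higher in both 3 h libraries than in both naive ones. With 2 libraries per time this is description and adds no support to the calls, and the share over all genes is not given here.

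Of the haem and iron genes 5 rose with them, and at 3 h Hmox1 and the iron exporter Slc40a1 had their highest levels in members with little MHC II. Hmox1 at 3 h was 5.53 ± 0.34 log2 units above naive (adjusted p = 1.7e-09) and was seen in 59 of 73 members. Split by MHC II, low members of naive mice had 144 and 106 CPM, those at 1 h 2184 and 845 CPM and those at 3 h 12570.4 and 7627 CPM. High members had 50.8 and 84.0 CPM, 799 and 174 CPM and 335 and 603 CPM. At 3 h the low range was thus above the high range in each genotype, although 14 of 16 and 8 of 16 high members also had at least 1 Hmox1 UMI; each value is a single pool and the difference was not tested. In low members alone the rise at 3 h was called (log2 fold change 6.35, adjusted p = 3.3e-07). Slc40a1, the iron exporter ferroportin, had 68.8 and 41.4 CPM in naive mice, 33.0 and 120.5 after 1 h, and 234 and 192 after 3 h. Slc40a1 rose (log2 fold change 2.0 ± 0.40, adjusted p = 7.7e-04), with 649.5 and 408 CPM in low and 6.98 and 7.73 CPM in high members at 3 h. Ferritin heavy and light chains rose (Fth1, log2 fold change 2.0 ± 0.23, adjusted p = 2.4e-06; Ftl1, log2 fold change 0.97 ± 0.22, adjusted p = 0.00224), as did Bach1, a haem-sensing repressor (log2 fold change 1.98 ± 0.33, adjusted p = 1.6e-04). Of 15 haem and iron genes 11 were tested, Hpgds fell (log2 fold change -1.99 ± 0.32, adjusted p = 7.7e-05), and the median was 0.86. Cd163, which imports haemoglobin bound to haptoglobin, had 307 and 327 CPM in naive mice, 793 and 301 after 1 h, and 99.2 and 263 after 3 h and was not called.

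**Figure D3:**
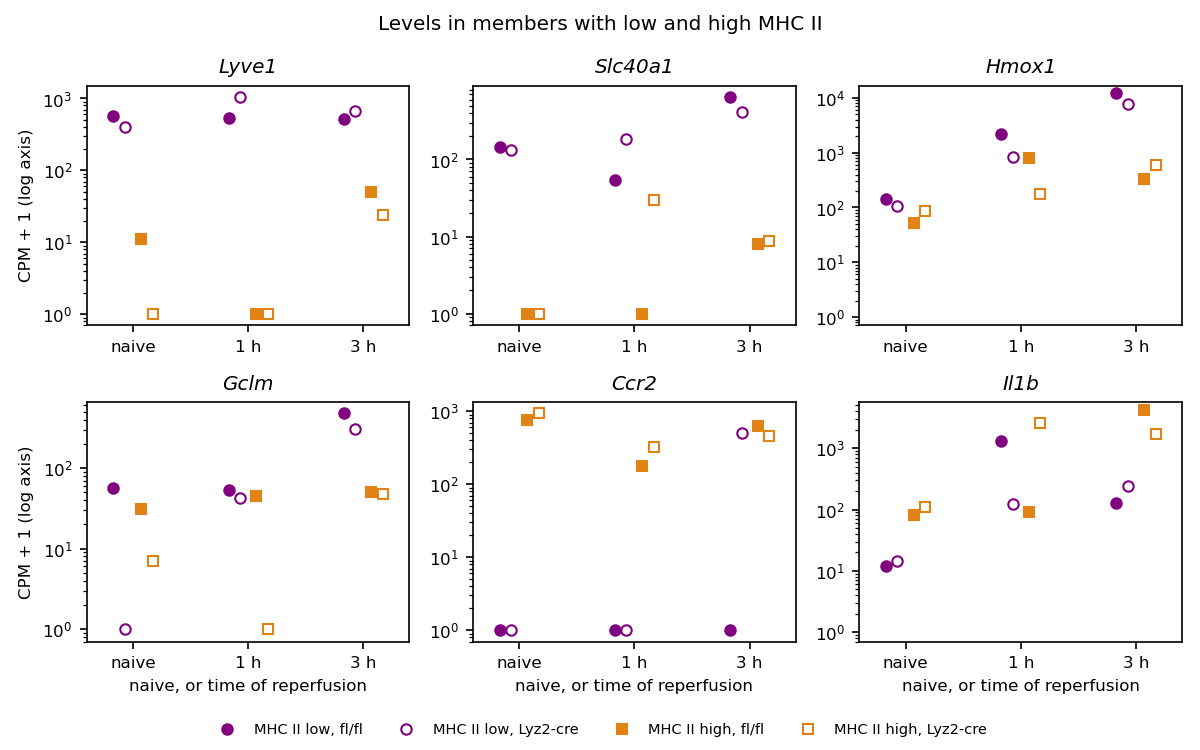
Level in CPM, on a log axis of CPM + 1, of 6 genes in members with MHC II under 1% of UMIs (circles) and over 1% (squares), by time, with fl/fl filled and Lyz2-cre open; each point is 1 library. Lyve1 and Slc40a1 are high in the low range at all times, Hmox1 and Gclm separate the ranges at 3 h, and Ccr2 and Il1b are higher in the high range at 3 h except for Ccr2 in Lyz2-cre.

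Chaperones of several compartments were higher at 3 h, 11 of 15 tested with none lower and a median of 1.92, and 11 of 13 in members without Ly6c2 and Cd209a. Hspa8, the constitutive cytosolic chaperone, had 1021 and 947 CPM in naive mice, 1867 and 1602 after 1 h, and 4831 and 2665 after 3 h. Hspa8 rose (log2 fold change 1.92 ± 0.25, adjusted p = 6.6e-06). Hsp90aa1 had 280.4 and 174 CPM in naive mice, 149 and 566 after 1 h, and 2055 and 1773 after 3 h. Hsp90aa1 rose (log2 fold change 3.13 ± 0.41, adjusted p = 2.9e-04). The co-chaperone Dnaja1 had 243 and 124 CPM in naive mice, 182 and 349 after 1 h, and 1032 and 868 after 3 h. Dnaja1 rose (log2 fold change 2.44 ± 0.32, adjusted p = 1.3e-05). In the endoplasmic reticulum Hspa5 (log2 fold change 1.90 ± 0.24, adjusted p = 5.6e-06), its co-chaperone Dnajb11 (log2 fold change 2.31 ± 0.33, adjusted p = 2.1e-05) and the secreted stress factor Manf (log2 fold change 2.31 ± 0.29, adjusted p = 4.1e-06) rose together, and Manf had 201 and 132 CPM in naive mice, 182 and 181 after 1 h, and 901 and 701 after 3 h. Hspa1b was still above naive by a ratio of 433-fold (95% counting interval 77.3 to 17137), adjusted p = 1.7e-09; for Hspa1a 1 cell gave 60.7% of the 3 h UMIs. Of 11 tested stress and unfolded-protein genes 7 rose and none fell, with a median of 1.56; Cdkn1a had 58.2 and 45.5 CPM in naive mice, 677 and 205 after 1 h, and 1023 and 509 after 3 h. Cdkn1a rose (log2 fold change 3.85 ± 0.36, adjusted p = 9.2e-08). Gdf15, a stress cytokine, rose from 0 UMIs, but 3 cells held all of its 3 h UMIs.

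Glycolysis and hypoxia genes rose without exception among those called: 12 of 16 tested at 3 h, with a median of 1.64, against 2 at 1 h (Ddit4 and Pfkfb3) with a median of 0.36. Pkm, pyruvate kinase, had 106 and 141 CPM in naive mice, 182 and 205 after 1 h, and 613 and 471 after 3 h. Pkm rose (log2 fold change 2.15 ± 0.31, adjusted p = 3.1e-05). Slc2a1, the glucose transporter GLUT1, had 10.6 and 16.5 CPM in naive mice, 49.6 and 48.2 after 1 h, and 126 and 138 after 3 h. Slc2a1 rose (log2 fold change 3.22 ± 0.49, adjusted p = 4.6e-05). Hif1a, the oxygen-regulated subunit of hypoxia-inducible factor, had 37.0 and 70.3 CPM in naive mice, 33.0 and 36.1 after 1 h, and 229.9 and 204 after 3 h. Hif1a rose (log2 fold change 2.01 ± 0.37, adjusted p = 3.9e-04). Vegfa, a growth factor that opens vessels, had 24 UMIs at 3 h and 0 in naive members (at least 7.46-fold higher, adjusted p = 0.00948), with adjusted p = 0.091 without the fl/fl naive library and 0.0133 without the Lyz2-cre naive one. Members without Ly6c2 and Cd209a had 7 of 13 called, and those with low MHC II 2 of 8, so this list's count rests in part on which members enter. Of 14 tested glucocorticoid-induced genes 8 rose and Dusp1 fell; Fkbp5, a co-chaperone of the glucocorticoid receptor, had 10.6 and 4.14 CPM in naive mice, 132 and 84.3 after 1 h, and 203 and 292 after 3 h, with a ratio of 35.8-fold (95% counting interval 11.9 to 176) at 3 h and adjusted p = 6.4e-07.

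Chemokines and cytokines at 3 h were higher for some members of each list. Cxcl2 had its highest levels at 3 h (log2 fold change 4.74 ± 0.28, adjusted p = 3.1e-10, seen in 47 of 73 members), and Cxcl3, its close relative, had no UMI before 3 h and 428 and 446 CPM then (at least 62.8-fold higher than naive, adjusted p = 1.6e-08). Cxcl3 passed the filter on low counts through the 3 h libraries alone, so it could only rise. Its call and its place in the chemokine count are description. Ccl9 had 95.2 and 103 CPM in naive mice, 380.0 and 241 after 1 h, and 1988 and 1485 after 3 h. Ccl9 rose (log2 fold change 4.12 ± 0.29, adjusted p = 2.0e-09). Ccl6 had 68.8 and 182 CPM in naive mice, 264 and 253 after 1 h, and 753 and 797 after 3 h (log2 fold change 2.67 ± 0.33, adjusted p = 5.0e-06). Ccl24, an eosinophil chemokine made by border macrophages, had 159 and 199 CPM in naive mice, 264 and 1108 after 1 h, and 180.3 and 1593 after 3 h. Ccl24 rose (log2 fold change 1.89 ± 0.51, adjusted p = 0.0219). In Lyz2-cre both later libraries were above naive, and in fl/fl the 3 h level lay between naive and 1 h; without the Lyz2-cre 3 h library the adjusted p was 0.331. Of 14 tested chemokines 6 rose (Cxcl2, Cxcl3, Ccl4, Ccl6, Ccl9 and Ccl24), Ccl8 fell, and the median was 0.41. Of 16 tested cytokine and NF-kB genes 7 rose and Nfkbiz fell, with a median of 0.80. Osm, oncostatin M, had 21.2 and 29.0 CPM in naive mice, 264 and 60.2 after 1 h, and 563 and 259 after 3 h. Osm rose (log2 fold change 3.92 ± 0.44, adjusted p = 1.4e-06). Il1b at 3 h had 4220.1 and 1678 CPM in MHC II-high and 127 and 245 CPM in MHC II-low members, and its call (adjusted p = 5.9e-05) was lost in members without Ly6c2 and Cd209a (adjusted p = 0.146). The lectin receptor Clec4d had no naive UMI and 343 and 296 CPM at 3 h (at least 45.7-fold higher, adjusted p = 2.8e-08), in 34 of 73 members. With no naive UMI, Clec4d too could only be called higher.

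Vessel and matrix genes split. Of 28 listed, 15 were tested, 6 rose and 4 fell, with a median of 0.48. Plaur had 0 and 0 CPM in naive mice, 215 and 120.5 after 1 h, and 689.6 and 229 after 3 h (at least 64.7-fold higher at 3 h than naive, adjusted p = 1.6e-08), in 36 of 73 members. Thbs1 had 0 and 0 CPM in naive mice, 16.5 and 241 after 1 h, and 1073 and 1180.4 after 3 h (at least 162-fold higher, adjusted p = 2.8e-05); at 3 h it was at 1639 and 1732 CPM in MHC II-high and 38.2 and 534 CPM in MHC II-low members, and in members without Ly6c2 and Cd209a its adjusted p was 0.0827. Ednrb, the endothelin B receptor, had 111 and 66.2 CPM in naive mice, 297 and 157 after 1 h, and 306 and 184 after 3 h. Ednrb rose (log2 fold change 1.5 ± 0.33, adjusted p = 0.00175). The semaphorin and growth factor co-receptor Nrp1 (log2 fold change -2.49 ± 0.34, adjusted p = 1.3e-05), the protease inhibitor Timp2 (log2 fold change -1.29 ± 0.32, adjusted p = 0.0047), Igf1 (log2 fold change -1.37 ± 0.40, adjusted p = 0.0154) and Pdgfb (log2 fold change -1.95 ± 0.46, adjusted p = 0.00329) fell. Spp1, osteopontin, rose (log2 fold change 4.38 ± 0.91, adjusted p = 0.0225), but 1 cell held 64.0% of its 3 h UMIs.

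Genes of the border-macrophage identity were more often lower than higher at 3 h: of 26 tested, 12 fell and 4 rose, with a median of -0.79, and in members without Ly6c2 and Cd209a 7 fell and 5 rose of 25. Over all genes of that set 254 fell and 281 rose of 2792. Ms4a7 fell from 704 and 592 CPM in naive to 176 and 234 CPM at 3 h (log2 fold change -1.61 ± 0.27, adjusted p = 1.8e-04), with both 3 h libraries below all others. Gas6, a bridge between dying cells and the uptake receptors AXL and MERTK, had 762 and 633 CPM in naive mice, 595 and 602 after 1 h, and 85.6 and 150.2 after 3 h. Gas6 fell (log2 fold change -2.52 ± 0.31, adjusted p = 3.9e-06). The transcription factor Maf had 1185 and 1084 CPM in naive mice, 429.6 and 638 after 1 h, and 207 and 571 after 3 h. Maf fell (log2 fold change -1.62 ± 0.30, adjusted p = 5.6e-04). Stab1, a scavenger receptor, had 894 and 699 CPM in naive mice, 1173 and 843 after 1 h, and 297 and 446 after 3 h. Stab1 fell (log2 fold change -1.05 ± 0.27, adjusted p = 0.00708). Folr2, a folate receptor, had 233 and 265 CPM in naive mice, 116 and 133 after 1 h, and 90.1 and 121 after 3 h (log2 fold change -1.20 ± 0.31, adjusted p = 0.0071). Fcgrt, the neonatal Fc receptor, fell too (log2 fold change -1.40 ± 0.31, adjusted p = 0.0019), whereas Clec4n (log2 fold change 2.33 ± 0.35, adjusted p = 6.6e-05), Slc40a1, Ednrb and Ccl24 were the identity genes that rose. Lyve1, Cd163, F13a1, Dab2 and Apoe were not called, and Apoe, a lipid carrier that is among the most abundant transcripts of these cells, had 34055 and 33317 CPM in naive mice, 33077 and 23865 after 1 h, and 24883 and 22307 after 3 h. In the 129 members with 10 or more UMIs of the rule's genes 13 of 26 identity genes fell and 5 rose, and in the 98 members with little MHC II alone the counts were again 13 and 5. Over all genes 291 fell and 315 rose of 2625 in the former set, and 123 fell and 168 rose of 1591 in the latter. Uptake genes went both ways, 6 up and 6 down of 24 tested (5 and 2 of 23 in members without Ly6c2 and Cd209a, and 2 and 6 of 20 in those with little MHC II), with Cd14, Cd36, Msr1 and Fcgr3 among those that rose and Gas6, Colec12 and Stab1 among those that fell.

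Genes that microglia hold at higher levels fell in members as well. Cx3cr1, the fractalkine receptor, had 1201 and 1113 CPM in naive mice, 562 and 458 after 1 h, and 72.1 and 108 after 3 h. Cx3cr1 fell at 3 h (log2 fold change -3.63 ± 0.30, adjusted p = 1.6e-08). Microglia had 4293 and 4735 CPM in naive mice, 2713 and 3017 after 1 h, and 2417 and 2882 after 3 h, so their level was lower at 3 h too. Of 9 tested microglial markers 7 fell in members and none rose, with a median of -1.53, but 4 of 8 fell in members without Ly6c2 and Cd209a and 2 of 7 in those with little MHC II. P2ry12 was among the 7, and the rule limits it in every member, so its call is given as description. The summed level of the 12 markers in members was 4053 and 4211 CPM in naive mice, 4791 and 3831 after 1 h, and 1366 and 1522 after 3 h, against 21369 to 39161 CPM in microglia, and the part of microglial RNA in the member sums was not tested. P2ry12 is in these sums and was used to choose both kinds of cell, so they are set side by side as description. Mef2c, a transcription factor of macrophages, had 947 and 860.4 CPM in naive mice, 578 and 638 after 1 h, and 67.6 and 184 after 3 h. Mef2c fell (log2 fold change -2.84 ± 0.32, adjusted p = 2.1e-06). Irf8 fell with it (log2 fold change -1.88 ± 0.33, adjusted p = 2.3e-04). Of the complement genes, 10 were tested, C1qa (log2 fold change -0.84 ± 0.23, adjusted p = 0.00905), C1qc (log2 fold change -0.93 ± 0.23, adjusted p = 0.00547) and C4b (log2 fold change -2.35 ± 0.34, adjusted p = 3.0e-05) were among those that fell, and the receptor for C5a, C5ar1, rose (log2 fold change 1.38 ± 0.30, adjusted p = 0.00173), with a median of -0.61. In members without Ly6c2 and Cd209a 1 of 9 complement genes fell and 1 rose, and C1qa and C1qc were no longer called (adjusted p = 0.282 and 0.205). Their calls were also lost without either naive library or the fl/fl 3 h library (adjusted p = 0.104 to 0.419), and C4b kept its call in each. Among 8 tested MHC II genes Cd86, a co-stimulatory ligand, rose and H2-DMa, H2-DMb1 and Ciita fell, with a median of -0.48. Of 18 tested immediate-early genes 13 fell and Fosl2 rose, with a median of -1.20; Fosb (log2 fold change -3.33 ± 0.27, adjusted p = 1.3e-08), Jun (log2 fold change -2.36 ± 0.25, adjusted p = 1.0e-06) and Klf4 (log2 fold change -2.98 ± 0.33, adjusted p = 1.2e-06) were among them.

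The B cell transcripts were lower in members at 3 h. Ighm had 222 and 248 CPM in naive mice, 182 and 193 after 1 h, and 9.01 and 25 after 3 h. Ighm fell at 3 h (log2 fold change -3.69 ± 0.44, adjusted p = 2.6e-06). 55 of 82 naive members held it. Cd79b fell from 10 and 13 UMIs in naive mice to 2 and 1 at 3 h (log2 fold change -2.87 ± 0.82, adjusted p = 0.0145). Both were also lower at 3 h than at 1 h (Ighm, log2 fold change -3.31 ± 0.53, adjusted p = 3.0e-04; Cd79b, log2 fold change -3.43 ± 0.91, adjusted p = 0.0198). Ighm in microglia had 306 and 330.0 CPM in naive mice, 226 and 259.6 after 1 h, and 145 and 177 after 3 h, and the fall in members was larger (difference of log2 fold changes -2.80 ± 0.43, adjusted p = 0.002). The part of RNA from other cells in these values was not tested.

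Monocyte transcripts appeared in members at 3 h. Ly6c2 had no UMI before and 356 and 242 CPM at 3 h (at least 42.6-fold higher, adjusted p = 1.1e-07), and Plac8 none before and 726 and 459 CPM (at least 84.3-fold higher, adjusted p = 9.7e-09). They came from 9 and 12 of 73 members. Of 8 tested monocyte markers 5 rose (Plac8, Ly6c2, Hp, Gsr and Fn1) and none fell, with a median of 3.58 with genes at 0 held at their bound. Plac8 and Ly6c2 passed the filter on low counts through the 3 h libraries alone, so they could only rise. Gsr is also counted among the oxidant defence genes above, so the count of 5 is description. The chemokine Ccl17, made by dendritic cells and some macrophages, had 1 naive UMI and 505 and 676 CPM at 3 h, in 7 cells. Without the members that hold Ly6c2 or Cd209a, Plac8 and Ccl17 no longer passed the filter on low counts. The other changes named at 3 h were computed both ways, and without those members 49 of 60 that still had a value kept their direction and an adjusted p under 0.05. The log2 fold change was then 5.06 for Cxcl2, 4.37 for Ccl9, 6.11 for Hmox1, -3.33 for Cx3cr1 and -2.02 for Gas6. The call was lost for C1qa, C1qc, Cd300lf, Fcgrt, Folr2, Igf1, Il1b, Spp1, Stab1, Thbs1 and Timp2.

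**Figure D4:**
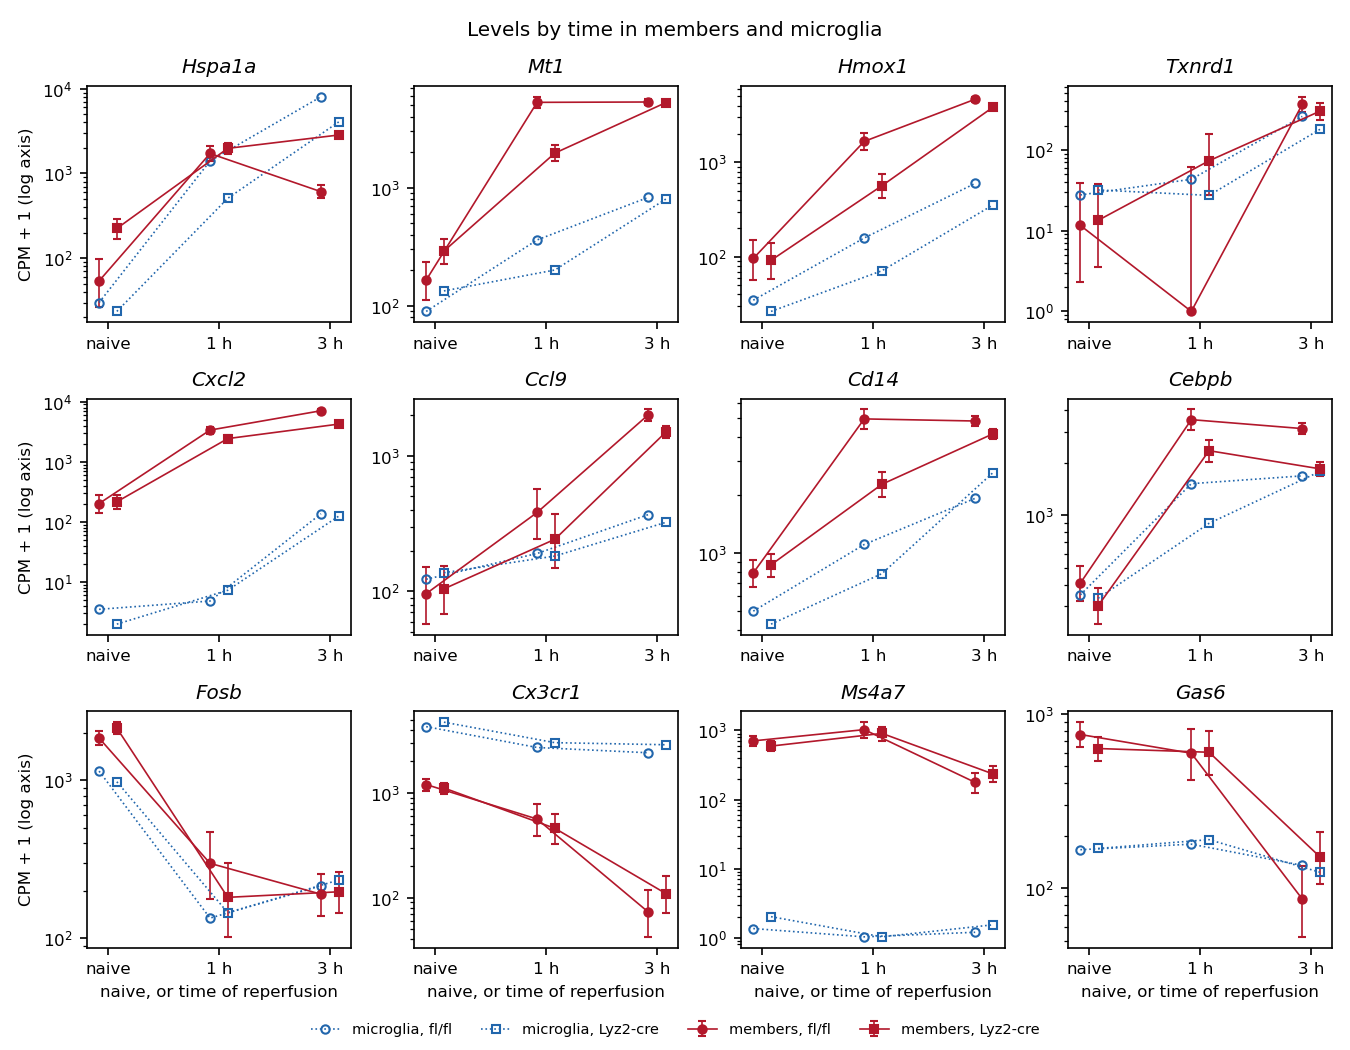
Level in CPM of 12 genes in members (filled) and microglia (open) by time, on a log axis of CPM + 1, circles for fl/fl and squares for Lyz2-cre; each point is 1 library and bars are exact 95% Poisson intervals of the member counts. Hmox1, Mt1 and Ccl9 climb further in members than in microglia, Hspa1a climbs further in microglia, Cxcl2 is higher in members at each time, and Cx3cr1, Ms4a7 and Gas6 fall in members at 3 h.

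**Figure D5:**
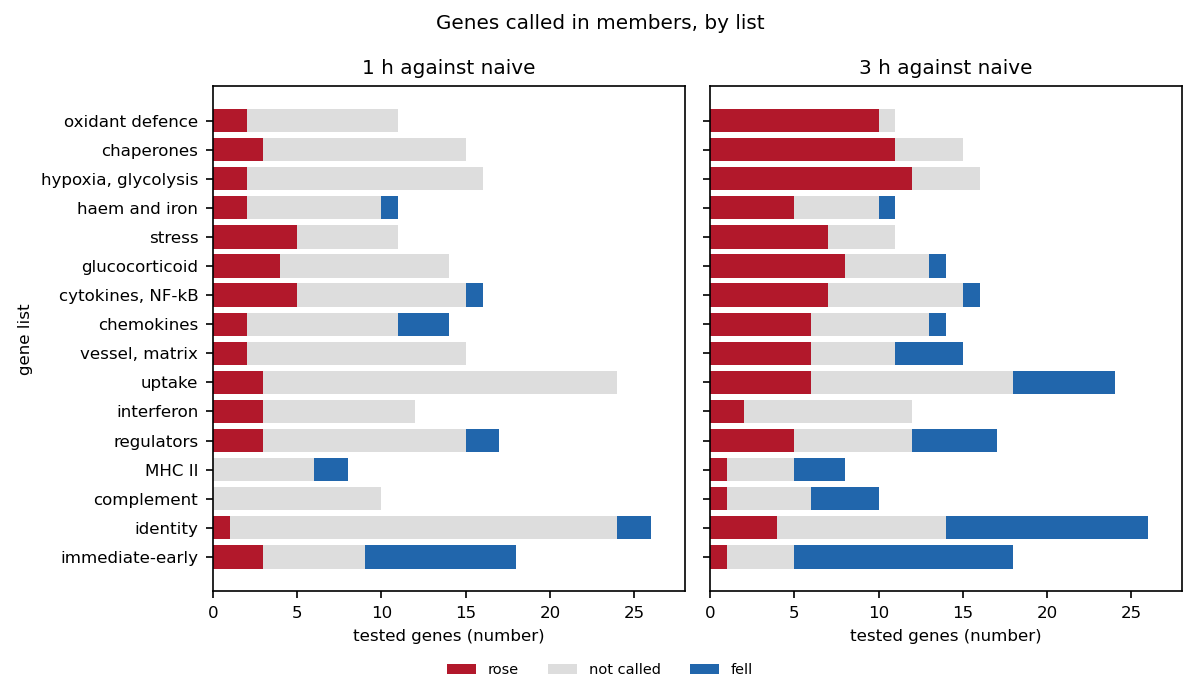
Number of tested genes of 16 lists that rose, fell or were not called in members at 1 h and at 3 h against naive (edgeR adjusted p under 0.05); bar lengths are gene counts. Oxidant, chaperone and glycolysis lists gain calls upward at 3 h (10, 11 and 12 genes), and immediate-early and identity lists gain calls downward (13 and 12 genes).

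Between 1 h and 3 h, 158 genes rose (4.09% of those tested) and 144 fell (3.73%), in a contrast that shares its 3 h libraries with the one above. Ccl9 (log2 fold change 2.58 ± 0.29, adjusted p = 6.9e-06), Hmox1 (log2 fold change 2.13 ± 0.29, adjusted p = 8.7e-05) and Manf (log2 fold change 2.19 ± 0.33, adjusted p = 1.8e-04) were higher at 3 h than at 1 h, as were Clec4d (log2 fold change 2.97 ± 0.48, adjusted p = 4.1e-04) and Txnrd1 (log2 fold change 3.06 ± 0.56, adjusted p = 0.00153). Ccl2, which was lower than naive at 1 h, had 1683 and 1009 CPM in naive mice, 578 and 289 after 1 h, and 1478 and 1022 after 3 h and rose again (log2 fold change 1.65 ± 0.27, adjusted p = 3.5e-04). Of 11 tested oxidant genes 6 rose, of 15 chaperones 7, and of 14 chemokines 6, and none of these lists had a gene that fell. Of 12 tested interferon genes 5 fell and none rose; Bst2, which tethers viruses at the membrane, had 566 and 596 CPM in naive mice, 1239 and 1120.3 after 1 h, and 545 and 375 after 3 h. Bst2 fell (log2 fold change -1.29 ± 0.26, adjusted p = 0.00313). Gadd45g (log2 fold change -2.20 ± 0.37, adjusted p = 5.2e-04) and Cd83 (log2 fold change -1.58 ± 0.28, adjusted p = 8.1e-04) also fell, so of the times sampled they were highest at 1 h. Ms4a7 (log2 fold change -2.14 ± 0.29, adjusted p = 4.9e-05), Gas6 (log2 fold change -2.26 ± 0.34, adjusted p = 1.6e-04) and Fcgrt (log2 fold change -2.23 ± 0.32, adjusted p = 1.0e-04) were lower at 3 h than at 1 h, and 8 of 26 identity genes fell with none rising.

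Few genes passed the test between genotypes. Cd300a, the targeted gene, encodes an inhibitory receptor for lipids exposed on dying cells, and in members it had 19 and 1 UMIs in naive mice, 4 and 2 after 1 h, and 16 and 9 after 3 h. As levels these were 101 and 4.14 CPM in naive mice, 66.1 and 24.1 after 1 h, and 72.1 and 37.5 after 3 h, lower in Lyz2-cre at each time. In Lyz2-cre a single member held each library's Cd300a UMIs, including all 9 at 3 h. In fl/fl 14, 4 and 8 members had it. The difference did not pass the test (log2 fold change -1.94 ± 0.55, adjusted p = 0.355), and microglia had 172 and 137 CPM in naive mice, 211 and 168 after 1 h, and 206 and 160.0 after 3 h. Among the other receptors of the family Cd300c2 had 328 and 285 CPM in naive mice, 281 and 409.6 after 1 h, and 279 and 188 after 3 h, and Cd300lf, an inhibitory relative, had no naive UMI, 99.1 and 36.1 CPM after 1 h and 126 and 54.2 CPM after 3 h (at least 12.8-fold higher than naive at 3 h, adjusted p = 5.5e-05).

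Of 3862 genes, 3 were higher (0.0777% of those tested) and 2 lower (0.0518%) in Lyz2-cre than in fl/fl members over 3 libraries each, and 221 had an unadjusted p under 0.05. Lyz2, lysozyme 2, whose locus carries the Cre, had 9604 and 16.5 CPM in naive mice, 9087 and 48.2 after 1 h, and 7599 and 41.7 after 3 h. Lyz2 was lower in Lyz2-cre (log2 fold change -8.03 ± 0.31, adjusted p = 4.7e-14). No Lyz2-cre library came near a fl/fl one, which checks the genotype labels. Lyz1, its neighbour and near copy, had 0 and 248 CPM in naive mice, 0 and 96.4 after 1 h, and 9.01 and 83.4 after 3 h; with 2 UMIs in fl/fl members the ratio was 36.7-fold (95% counting interval 9.87 to 308), adjusted p = 3.6e-04, and reads of these copies can be assigned to either gene. Ccl7, a chemokine for monocytes, had 2244 and 1113 CPM in naive mice, 1553 and 373 after 1 h, and 1541 and 713 after 3 h. Ccl7 was lower in Lyz2-cre (log2 fold change -1.31 ± 0.21, adjusted p = 0.00402), at every time. Its call was lost in the 159 members without Ly6c2 and Cd209a (adjusted p = 0.0776) and in the 98 with little MHC II (adjusted p = 0.159). Lpl, lipoprotein lipase, had no UMI in fl/fl members and 24.8, 277 and 70.9 CPM in Lyz2-cre (at least 12.8-fold higher, adjusted p = 0.0034), with 39.1% of the UMIs in a single cell. With no fl/fl UMI, Lpl could only be called higher, so its call is description. Stmn1, a tubulin-binding protein of dividing cells, was the other call (log2 fold change 3.07 ± 0.60, adjusted p = 0.0349), with 60.4% of its UMIs in a single cell. Leaving out any 1 library raised the number of called genes, to between 18 (without fl/fl 3 h) and 37 (without Lyz2-cre 1 h): it was 23 without fl/fl naive, 20 without Lyz2-cre naive, 36 without fl/fl 1 h and 21 without Lyz2-cre 3 h.

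The responses of members and microglia were compared directly, by testing whether the change from naive differed between them within the same libraries. At 1 h, 25 genes moved further upward in members than in microglia (0.647% of 3862) and 13 further downward (0.337%). At 3 h these were 147 (3.81%) and 282 (7.3%), with an all-gene median difference of -0.16. Without the fl/fl naive library 8 genes were called at 1 h and 72 at 3 h, without the Lyz2-cre naive library 161 at 3 h, without the Lyz2-cre 1 h library 7 at 1 h, without the fl/fl 3 h library 138 at 1 h and 240 at 3 h, and without the Lyz2-cre 3 h library 129 at 1 h.

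Several oxidant and haem genes rose further in members. Mt1 in microglia had 88.5 and 132 CPM in naive mice, 359.9 and 199.7 after 1 h, and 826 and 799.6 after 3 h, and the rise in members was larger at 1 h (difference of log2 fold changes 2.46 ± 0.25, adjusted p = 7.3e-04) and at 3 h (1.67 ± 0.24, adjusted p = 0.00138). Hmox1 in microglia had 33.8 and 25.5 CPM in naive mice, 158 and 70.4 after 1 h, and 599 and 353 after 3 h, also highest at 3 h, and the rise in members was larger at 1 h (1.47 ± 0.31, adjusted p = 0.0408) and at 3 h (1.54 ± 0.29, adjusted p = 0.00554). Prdx1 was at 162 and 171 CPM in naive mice, 213 and 228 after 1 h, and 235 and 199.9 after 3 h in microglia and differed at 3 h (1.46 ± 0.26, adjusted p = 0.00445). Of 11 tested oxidant genes 5 rose further in members at 3 h (Mt1, Prdx1, Gclc, Gclm and Sod2), none less, with a median difference of 1.92; Srxn1 and Txnrd1, which rose in members, had no called difference. Fth1 (0.95 ± 0.18, adjusted p = 0.00703) and the glycolysis genes Pkm, Pgk1 and Eno1 were also further up in members. The reticulum chaperone Hspa5 went from 1396 and 1165 CPM to 1829 and 1451 CPM in microglia, and Manf from 274 and 243 CPM to 348 and 337 CPM; both rose further in members (Hspa5, 1.53 ± 0.21, adjusted p = 8.0e-04; Manf, 1.89 ± 0.26, adjusted p = 8.4e-04).

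Hspa1a and several chemokines went the other way in the sums over all members. Hspa1a in microglia had 29.0 and 22.6 CPM in naive mice, 1401 and 508 after 1 h, and 8034 and 4053 after 3 h, and its rise at 3 h was smaller in members (-4.17 ± 0.38, adjusted p = 4.2e-05). In members with little MHC II alone this difference was not called, and of 11 tested chaperones 1 was called upward and none downward. Of the naive Hspa1a UMIs, MHC II-high members held 5 of 10 in fl/fl and 51 of 54 in Lyz2-cre, where a single cell gave 25. Over the 15 tested chaperones only Hspa1a and Hspa5 had a called difference, in opposite directions, and the median was 0.03. Ccl4 and Ccl3, inflammatory chemokines, went in microglia from 792 and 596 CPM to 6339 and 3891 CPM at 3 h for Ccl4 and from 1282 and 842 CPM to 4642 and 2691 CPM for Ccl3, while members had 566 and 228 CPM and 883 and 1018 CPM of Ccl4 and 1577 and 1464 CPM and 1140.3 and 1214 CPM of Ccl3 (Ccl4, -1.48 ± 0.32, adjusted p = 0.0131; Ccl3, -2.12 ± 0.39, adjusted p = 0.00925). Split by MHC II, Ccl4 in low members had 144 and 186 CPM in naive mice and 1325 and 1948 CPM at 3 h. High members had 955 and 246 CPM and then 642 and 224 CPM. With MHC II-low members alone the Ccl4 difference from microglia changed sign, and its call was kept in 8 of 14 alternatives. Ccl9 and Ccl6 rose further in members: Ccl9 in microglia was at 122 and 136 CPM in naive mice, 189 and 181 after 1 h, and 366 and 321 after 3 h, and the difference at 3 h was 2.70 ± 0.27 (adjusted p = 9.6e-05), and for Ccl6 it was 2.38 ± 0.35 (adjusted p = 0.00138). Cxcl2 stayed at 2.51 and 0.988 CPM in naive microglia and reached 136 and 124 CPM at 3 h, so its level was higher in members throughout, while the difference of its changes was not called (adjusted p = 0.0506). Junb was at 4640.4 and 3827 CPM in naive microglia and 2082 and 1662 CPM at 1 h, and the histone gene H3f3b at 7929 and 6542 CPM and 2133 and 2090.4 CPM, so both were lower there, while Junb rose in members and H3f3b had 3963 and 3516 CPM and 4213 and 3554 CPM (Junb, 2.01 ± 0.23, adjusted p = 0.00127; H3f3b, 1.73 ± 0.19, adjusted p = 8.8e-04). At 1 h the cytokine inhibitor Socs3 (2.44 ± 0.33, adjusted p = 0.00267), Ier3 (1.85 ± 0.24, adjusted p = 0.00267), Cdkn1a (2.50 ± 0.38, adjusted p = 0.00563), Isg15 (2.42 ± 0.43, adjusted p = 0.0173) and Hspa5 (1.18 ± 0.22, adjusted p = 0.0212) moved further upward in members too. Ms4a7 also had a called difference at 1 h (4.62 ± 0.62, adjusted p = 0.00267), against microglial levels of no more than 1.02 CPM. The difference of Ccr2 was downward (-2.43 ± 0.38, adjusted p = 0.00566). Rcan1, an inhibitor of calcineurin, went in microglia from 34.5 and 41.9 CPM to 852 and 489 CPM after 1 h and 872 and 844 CPM after 3 h, and in members it had 127 and 86.9 CPM in naive mice, 710.5 and 301 after 1 h, and 297 and 163 after 3 h, a smaller rise (-2.06 ± 0.32 at 1 h, adjusted p = 0.00566; -3.41 ± 0.32 at 3 h, adjusted p = 4.4e-05). Cx3cr1 (-2.90 ± 0.25, adjusted p = 2.5e-05) and Mef2c (-2.55 ± 0.29, adjusted p = 2.8e-04) fell further in members than in microglia at 3 h. Microglia were chosen by P2ry12 and Tmem119 UMIs at every time, so barcodes with little of these genes were left out of the microglia sums. The part of this choice in the smaller fall of Cx3cr1 and Mef2c there was not tested.

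Some differences lay in the microglia sums, with no called change in members. Dab2, an endocytic adaptor, had 891 to 1823 CPM in members over all libraries and went in microglia from 11.1 and 12.8 CPM to 106 and 141 CPM at 3 h, which gave a difference of -3.07 ± 0.22 (adjusted p = 8.1e-06) and at 1 h one of -1.73 ± 0.23 (adjusted p = 0.00267). The same held for F13a1, at 373 to 662 CPM in members and 1.20 and 4.37 CPM in naive and 23.2 and 38.5 CPM in 3 h microglia (-3.86 ± 0.44, adjusted p = 2.8e-04), and for Wfdc17 (-3.48 ± 0.26, adjusted p = 8.1e-06). These genes are abundant in members or monocytes and near the bottom of the range in microglia, and the part of RNA from other cells in the microglia sums was not tested. Of the 26 tested identity genes 11 had a called difference downward at 3 h and 2 upward, with a median of -1.58, and this count includes genes whose change lay in the microglia sums.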

How the data were processed

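Single-cell RNA libraries of living CD45-positive brain cells were analysed from UMI counts, 1 library per genotype and time. The deposited count matrices hold UMI counts per gene and barcode, made with Cell Ranger 3.0.2 on build mm10, per the submitters' processing notes. The members and the 27 gene lists were chosen with earlier results of these data known. Raw counts of the members were summed per library and tested with edgeR 4.0.16 (R 4.3.3): quasi-likelihood F-test, TMM factors, the default filter on low counts, terms for genotype and time, Benjamini-Hochberg adjustment over 3862 genes, threshold 0.05. The difference from microglia was tested with library as block and class terms for time and genotype, on member and microglia sums. Each combination of genotype and time is 1 pool, so p-values rest on the spread that an additive model leaves between pools, moderated by the variance of other genes. The residual degrees of freedom were 2, and the median prior ones were 19.6 for members and 11.1 for the difference from microglia. A gene was first named if it had one of the 10 largest called changes in a direction without overlap of libraries and at least 50 CPM, one of the 8 smallest p-values of a difference, or one of the 4 smallest p-values of its list; other list members, and Ccl17, Clec4d, Dnajb11 and Manf between some of the groups, were named after their values were seen. A gene with no UMI in a group was held at 3 UMIs over that group for its bound. Such a gene could only be called higher in the other group, so its call is description. Upstream sequences came from RefSeq GRCm38.p6 and positions from the GRCm38 annotation. Doublet scores (Scrublet in scanpy 1.11.5) marked the top 0.8% of barcodes per 1000 barcodes in a library, and marked members stayed in. Depth ran from 60525 to 241741 UMIs per member sum. The model was tested on simulated data. Alternatives were DESeq2 1.42.0, other size factors, no filter, leaving out each library, and stricter member rules.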

Additional observations from a re-analysis of the deposited data

Results flagged for a closer look

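The change from naive differed between border-associated macrophages and microglia of the same libraries, by edgeR's test of the class-by-time term, in 38 genes at 1 h and 429 at 3 h. Values here are the log2 fold change in macrophages minus that in microglia, for the genes whose difference is described above, and other genes were called too. At 1 h the differences upward were Ms4a7 at 4.62, Cdkn1a at 2.50, Mt1 at 2.46, Socs3 at 2.44, Isg15 at 2.42, Junb at 2.01, Ier3 at 1.85, H3f3b at 1.73, Hmox1 at 1.47 and Hspa5 at 1.18. Those downward were Ccr2 at -2.43, Rcan1 at -2.06 and Dab2 at -1.73. At 3 h genes of oxidant defence, haem and iron included Mt1 at 1.67, Hmox1 at 1.54, Prdx1 at 1.46 and Fth1 at 0.95. The chaperones Hspa5 and Hspa1a differed by 1.53 and -4.17, and the secreted stress factor Manf by 1.89. The Hspa1a difference was not called in members with little MHC II alone. Among chemokines Ccl9 differed by 2.70, Ccl6 by 2.38, Ccl4 by -1.48 and Ccl3 by -2.12. The genes Cx3cr1, Mef2c, Rcan1 and Ighm differed by -2.90, -2.55, -3.41 and -2.80. Dab2 at -3.07, F13a1 at -3.86 and Wfdc17 at -3.48 had no called change in the macrophages, and their levels went up in the microglia sums. Libraries were 2 per time, so no value within a group was examined for standing apart.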

How the results depend on the processing

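With DESeq2 in place of edgeR 72 genes changed at 1 h (55 higher, 17 lower), 238 at 3 h (166 and 72), 112 between 1 h and 3 h, and 169 differed from microglia at 3 h; of the 238, all 238 were among edgeR's 913. With no filter on low counts 26 genes differed by genotype and 142 from microglia at 1 h. Leaving out each library in turn gave 84 to 198 genes at 1 h, 408 to 1303 at 3 h, 219 to 327 between 1 h and 3 h, 18 to 37 by genotype, and 7 to 138 and 72 to 511 differing from microglia at 1 h and 3 h. Members with 10 or more UMIs of the rule's genes gave 606 genes at 3 h and shares of 0.337% and 0.403% (naive) and 0.278% and 0.295% (3 h). Members with no P2ry12 or Tmem119 UMI gave 72, 453 and 137 genes at 1 h, 3 h and between them, 1 by genotype, 85 and 267 differing from microglia, and shares of 0.210% and 0.336% (naive), 0.0832% (fl/fl, 1 h) and 0.250% (fl/fl, 3 h). Leaving out high doublet scores gave 11 genes by genotype. The next alternatives were chosen after seeing the data. Members without Ly6c2 and Cd209a gave 535, 120, 1 and 231 genes (3 h, 3 h against 1 h, genotype, microglia at 3 h) and a share of 0.295% (Lyz2-cre, 3 h), and members with MHC II under 1% gave 51, 291, 52, 1, 16 and 73 genes in the 6 tests. Signs turned without P2ry12 or Tmem119 UMIs for Ccl7 at 1 h (0.01) and the difference of Isg15 at 1 h (-0.04), and, with MHC II under 1%, for the differences of Ccl4 (0.66) and Cxcl2 (0.11) at 3 h; the cause was not tested. Of the named genes 41 of 66 at 3 h and 12 of 34 at 1 h kept their call and direction in every alternative that gave a value, as did 2 of 13 differences from microglia at 1 h and 10 of 18 at 3 h. No paired analysis was possible because each genotype and time has a single library and all replicate numbers are 1, so nothing pairs libraries across groups; members and microglia were compared within libraries. Depth limits the 1 h libraries most, with 15 and 18 members.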
